A study of Canis lupus familiaris with 13 samples.

Results

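RNA-seq libraries numbering 6, from 3 canine mammary tumors were compared, 3 taken 1 week after the second intratumoral dose of IMAX and 3 taken later from the same tumors. They are 6 of the 13 libraries of the series and were chosen by their labels. IMAX is a nanoparticle whose carrier joins polyethyleneimine to lithocholic acid and is loaded with the drug paclitaxel and with a cyclic dinucleotide, an agonist of the DNA-sensing adaptor STING. Dog CL had a cranial ductal carcinoma and a caudal complex carcinoma, both treated and both biopsied again at 1 month. Dog BM had a solid carcinoma of the left caudal mammary gland, biopsied again at 3 weeks. Both dogs were companion animals with naturally occurring tumors and received 2 doses scaled to body weight. The comparison asks how the expression seen at 1 week had moved by the late biopsy.

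Several features limit what the comparison can carry. The 3 tumors come from 2 dogs, and no untreated dog was followed over the same interval. By the tissue diagnoses the late specimens came from mastectomies, whereas those at 1 week did not, so time and the kind of specimen cannot be told apart. The BM mass held mineralized areas in both specimens, and the late one was read as carcinosarcoma. Each tumor has 1 library per time point, so a difference within a tumor has no replicate check, and p-values measure only the spread between these tumors.

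As background, a cyclic dinucleotide that reaches STING switches on type I interferon, and interferon in turn switches on a broad set of antiviral genes. Macrophages and neutrophils enter injured tissue, endothelium becomes sticky for leukocytes, and complement and matrix proteins are laid down. Such a response normally wanes, and the tissue then holds a different mixture of tumor cells, stroma, and leukocytes. In a bulk biopsy, fewer cells of a type and less RNA per cell cannot be told apart.

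The files hold raw read counts per gene, and levels are given here in CPM, the count of a gene scaled to a library of fixed size after TMM normalization. The 6 libraries held 11622444 to 29931125 counts on genes. In edgeR's quasi-likelihood test with the tumor as a factor, 0 of 19975 genes were called lower late (0%) and 0 higher (0%) at a Benjamini-Hochberg adjusted p under 0.05. The smallest adjusted p was 0.275. At an unadjusted p under 0.05, 2026 genes were lower late (10.1%) and 1049 were higher (5.25%). This balance rests on the scaling, since offsets for gene density and length that also remove the mean of each library turned it to 1356 lower and 2214 higher, with an all-gene median of 0.13. DESeq2's Wald test on the same genes called 744 lower and 208 higher. The same direction in all 3 tumors held for 97% of its calls, beside 24.2% of all genes lower and 17.5% higher in all 3. A test over these tumors favors genes of one direction, so that share is not support for the calls. The gene and list values that follow are therefore measured differences that did not pass the edgeR test over all genes. Lists are described by counts and medians beside the same values for all genes.

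Across all tested genes the median fitted difference was -0.19 on the log2 scale. It was -0.12 in CL caudal, -0.22 in CL cranial, and -0.10 in BM. In all 3 tumors 4829 genes were lower late (24.2%) and 3502 were higher (17.5%). Lower by at least 1 log2 in all 3 were 1300 genes (6.51%), and higher by as much 296 (1.48%). Leaving out BM raised these counts to 3705 and 2226, leaving out CL caudal to 2843 and 642, and leaving out CL cranial to 1706 and 502, each over the 2 remaining tumors.

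**Figure D1:**
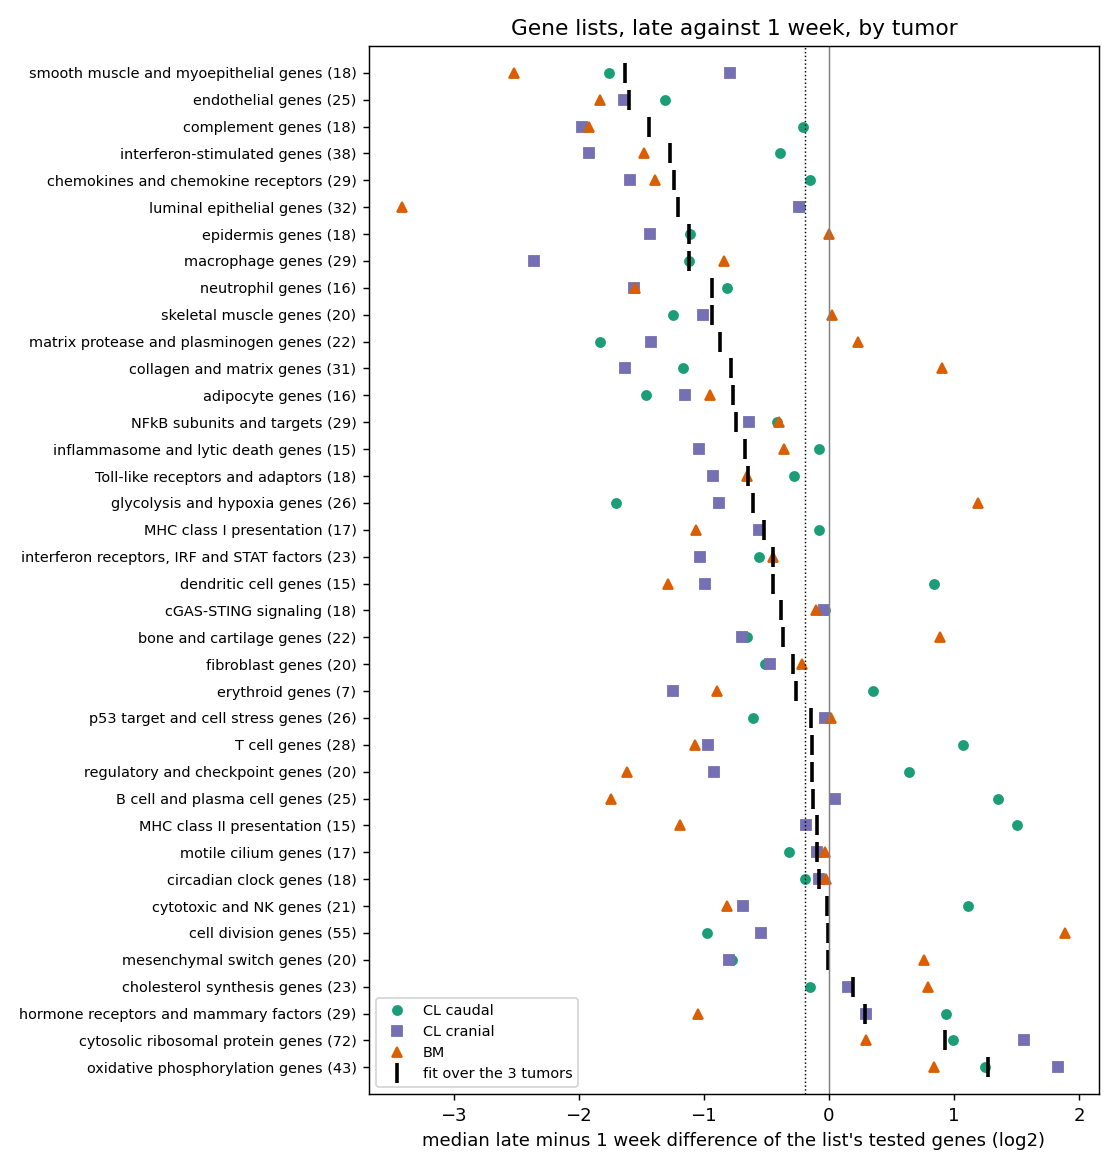
Median late minus 1 week difference (log2, x axis) of the tested genes of 38 gene lists (y axis, number of tested genes in parentheses) in CL caudal, CL cranial, and BM, with the median of the fitted differences as a bar and the median of all genes (-0.19) as a dotted line. Smooth muscle, endothelial, and complement genes are at the low end, oxidative phosphorylation and ribosomal protein genes at the high end, and the BM triangles lie apart from both CL tumors for luminal, cell division, and collagen genes.

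Interferon-stimulated genes, the antiviral genes switched on by interferon, were lower late, with a median fitted difference of -1.27 over 38 tested genes. The tumor medians were -0.39 in CL caudal, -1.92 in CL cranial, and -1.48 in BM. Of the 38, 21 were lower in all 3 tumors (55.3%) and 0 were higher in all 3, beside 24.2% and 17.5% of all genes. Taken singly, 21 were lower late in CL caudal, 35 in CL cranial, and 37 in BM. Their summed level went from 3870 to 3670 CPM in CL caudal, 7110 to 2310 CPM in CL cranial, and 5250 to 2140 CPM in BM. ZBP1, a sensor of Z-form nucleic acids that can trigger cell death, stood at 20.5, 151, and 107 CPM at 1 week in CL caudal, CL cranial, and BM, and at 0.431, 7.28, and 19.8 CPM late. ZBP1 was chosen for a small p and a large difference of one sign. Its 3 late values lay below the 3 values at 1 week, as in 9.64% of all genes, and below the levels before treatment of 3.21, 14.1, and 24.6 CPM. The fitted difference of ZBP1 was -3.94 (SE 0.65, n = 3 tumors, adjusted p = 0.275 in edgeR), and with all 13 libraries in the edgeR fit it passed the threshold (adjusted p = 0.0388). The sarcoma libraries added there hold no late against 1 week comparison of mammary tumors, so this is not further support. ZBP1 lies on chromosome 24 at chr24:43325535-43337462 in the RefSeq annotation of UU_Cfam_GSD_1.0.

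OASL, a 2'-5'-oligoadenylate synthetase-like protein that enhances RNA sensing, measured 76.7, 197, and 120.1 CPM at 1 week and 14.3, 17.9, and 25.8 CPM late, in the same order of tumors. PARP14, an ADP-ribosyltransferase induced by interferon, measured 80.9, 142, and 82.8 CPM at 1 week and 18.7, 17.6, and 13.9 CPM late. DHX58, the RNA helicase LGP2, measured 107, 165, and 128 CPM at 1 week and 9.99, 10.2, and 32.3 CPM late. Each of the 3, chosen for a large difference of one sign, was lower in every late library than in any at 1 week (9.64% of all tested genes were so). The fitted differences were -2.72 (SE 0.47), -2.56 (SE 0.43), and -3.22 (SE 0.67). ISG15, the ubiquitin-like protein of the same response, went the other way in dog CL. In CL caudal it was not alone, since only 21 of the 38 listed genes were lower late there. Its level was 212 CPM at 1 week and 925 CPM late in CL caudal, 356 and 547 CPM in CL cranial, and 206 and 102 CPM in BM.

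Upstream of these genes the differences were smaller. The 18 tested cGAS-STING genes had a median of -0.39 in the fit but -0.03, -0.04, and -0.11 in the 3 tumors, near the medians of all genes. STING1, the adaptor that binds the dinucleotide of IMAX, measured 42.5, 56.2, and 43.999 CPM at 1 week and 19.7, 16.4, and 35.5 CPM late. Its before-treatment levels were 13.4, 19.3, and 8.75 CPM, so the late BM level was above its own level before treatment and the late CL cranial level was below it. IKBKE, a kinase that activates IRF3, had a fitted difference of -1.83 (SE 0.62), and TRIM56, a ubiquitin ligase that acts on cGAS and STING, -1.15 (SE 0.38). G3BP1, a stress granule protein that aids cGAS, was higher late, at 300.5, 222, and 256 CPM at 1 week and 497, 442, and 457 CPM late.

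The 23 interferon receptors, IRF and STAT factors had a median of -0.44. Of them 11 were lower in all 3 tumors (47.8%, beside 24.2% of all genes) while 0 were higher in all 3. SOCS3, a feedback inhibitor of cytokine receptors, measured 10.3, 8.80, and 33.5 CPM at 1 week and 0.862, 2.12, and 30.1 CPM late. STAT6, which carries interleukin-4 signals, behaved likewise, with differences of -3.30 and -2.78 in the CL tumors and -0.19 in BM. SOCS1, another feedback inhibitor, was a low gene with a fitted difference of -1.79 (SE 0.78).

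NFkB subunits and targets had a median of -0.74 in the fit and of -0.42, -0.64, and -0.40 in the tumors. BCL3, a nuclear partner of NFkB subunits, measured 13.2 and 25.8 CPM at 1 week and 0.862 and 2.03 CPM late in CL caudal and CL cranial, against 25.9 and 18.6 CPM in BM. NFKB2, which encodes a subunit, differed by -2.74, -2.48, and -0.16, and TNFAIP2, a target, by -2.54, -2.04, and -0.42. NFKBIA, the inhibitor that holds NFkB in the cytoplasm, was higher late in dog CL, at 58.2 and 447 CPM in CL caudal and 167 and 497 CPM in CL cranial, and lower in BM, at 125 and 87.7 CPM. LTB, a lymphotoxin subunit, had the same pattern, with differences of 4.16, 1.62, and -0.72. IL1B, the cytokine interleukin-1 beta, was at or under 1.91 CPM in the 6 libraries.

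Toll-like receptors and adaptors had a median of -0.65, with 7 of 18 genes lower in all 3 tumors (38.9%, beside 24.2% of all genes). TLR8, an endosomal RNA receptor, measured 13.8, 33.8, and 18.2 CPM at 1 week and 6.75, 6.45, and 6.02 CPM late. UNC93B1, which carries such receptors to the endosome, differed by -1.84, -0.93, and -0.59. The adaptor TICAM1 differed by -3.44, -2.15, and -0.73. TICAM2, its partner, measured 6.05, 10.2, and 12.05 CPM at 1 week and 0.503, 0, and 3.28 CPM late.

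**Figure D2:**
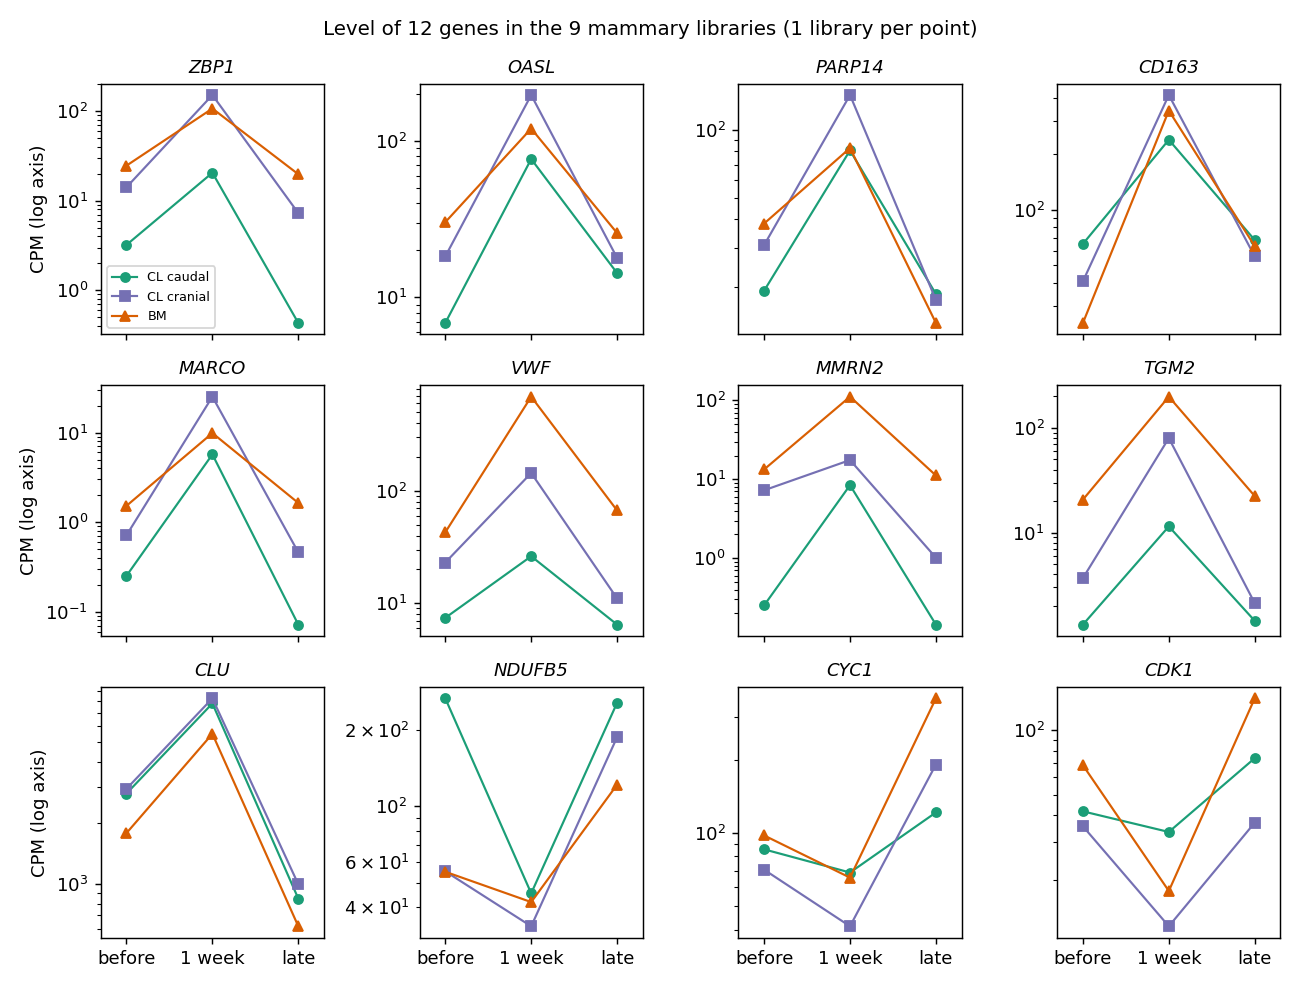
Level of 12 genes in CPM (y axis, log scale, ranges differ between panels) before treatment, at 1 week, and late (x axis) in CL caudal, CL cranial, and BM, each point 1 library without an error bar. ZBP1, OASL, PARP14, CD163, MARCO, VWF, MMRN2, TGM2, and CLU are highest at 1 week in each tumor, and NDUFB5, CYC1, and CDK1 are lowest at 1 week in each tumor.

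Macrophage genes were lower late, with medians of -1.12 in CL caudal, -2.36 in CL cranial, and -0.84 in BM. Of the 29 tested, 14 were lower in all 3 tumors (48.3%, beside 24.2% of all genes) and 0 were higher in all 3. The fitted median of -1.12 was -0.54 without CL cranial. Their summed level was 9020 to 13900 CPM at 1 week, 4000 to 5960 CPM late, and 2360 to 4270 CPM before treatment. In CL caudal the sum was 4270 CPM before treatment, 13900 CPM at 1 week, and 5160 CPM late. APOE alone held 469, 10100, and 904 CPM of it, so the rise and fall of that sum lay in 1 gene. CD163, a hemoglobin scavenger receptor of macrophages, measured 238, 416, and 343 CPM at 1 week and 68.4, 55.8, and 63.4 CPM late. MARCO, another scavenger receptor, measured 5.71, 25.2, and 9.88 CPM at 1 week and 0.0719, 0.461, and 1.64 CPM late, the value of CL caudal being under the floor of 3 counts. ADGRE1, the F4/80 antigen, measured 10.9, 33.2, and 17.9 CPM at 1 week and 1.22, 2.49, and 3.68 CPM late. The late levels lay below those at 1 week for these 3 genes, chosen for a large difference of one sign (9.64% of all genes did so), and the fitted differences were -2.42 (SE 0.48), -4.71 (SE 0.89), and -3.08 (SE 0.58).

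Other macrophage markers separated the dogs. CSF1R, the receptor for the macrophage growth factor, measured 196 and 240 CPM at 1 week and 28.4 and 22.9 CPM late in CL caudal and CL cranial, but 291 and 262 CPM in BM. CD68, a lysosomal protein of macrophages and osteoclasts, measured 17.9 and 2.44 CPM in CL caudal, 56.5 and 6.36 CPM in CL cranial, and 24.2 and 126 CPM in BM. An edgeR fit with terms of its own for BM put its departure from the CL tumors at 5.39 log2 for CD68. No p-value is given, since BM has 1 library per time point. APOE, a lipid carrier that macrophages secrete, stood at 10105 CPM in CL caudal at 1 week and 904 CPM late, at 3429 and 499.5 CPM in CL cranial, and at 1009 and 692 CPM in BM.

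Neutrophil genes had medians of -0.82, -1.56, and -1.55, and 8 of 16 were lower in all 3 tumors (50%, beside 24.2% of all genes). CSF3R, the G-CSF receptor, measured 4.12, 94.0, and 7.63 CPM at 1 week and 0.790, 3.69, and 0.709 CPM late. PADI4, which citrullinates histones in neutrophil traps, measured 0.987, 26.2, and 2.02 CPM at 1 week and 0.144, 0.553, and 0.576 CPM late. The highest value of both was the CL cranial tumor at 1 week. LCN2, a granule protein that binds siderophores, measured 6.05, 10.03, and 4.19 CPM at 1 week and 0.575, 1.198, and 0 CPM late. S100A8, a calcium-binding protein of neutrophils and stressed epithelium, did not share this pattern, at 47.3, 146, and 9.69 CPM at 1 week and 671, 146, and 2.17 CPM late. CAMP, the cathelicidin precursor, was higher late in CL cranial, at 1.96 and 10.96 CPM, and in BM, at 0 and 0.532 CPM. In CL caudal it was at 0.0429 and 0.0719 CPM, both under the floor of 3 counts.

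Chemokines and chemokine receptors had a median of -1.24, or -0.78 without CL cranial. In all 3 tumors 12 of 29 genes were lower (41.4%) and 2 higher (6.9%), beside 24.2% and 17.5% of all genes. CXCR1 and CXCR2, the interleukin-8 receptors of neutrophils, measured 14.7 and 9.65 CPM in CL cranial at 1 week and 1.29 and 0.276 CPM late, and were at or under 1.55 CPM in the other 2 tumors. CCL7, which draws monocytes, measured 8.97, 12.4, and 5.76 CPM at 1 week and 0.359, 1.11, and 0.0443 CPM late. CCL24, which draws eosinophils, was the other way round, at 0.258, 0.213, and 0.224 CPM at 1 week and 1.22, 1.01, and 0.797 CPM late.

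Complement genes were lower late, with a fitted median of -1.44 and tumor medians of -0.21, -1.97, and -1.92. CFB, the serine protease of the alternative pathway, measured 19.7, 267, and 426 CPM at 1 week and 8.77, 52.6, and 31.0 CPM late. SERPING1, the C1 inhibitor, measured 184, 474, and 1109 CPM at 1 week and 17.4, 25.6, and 411 CPM late. Protease and inhibitor were thus lower together in each tumor, and the fitted differences were -2.36 (SE 0.59) and -2.72 (SE 0.81). CD59, the membrane inhibitor of the attack complex, was higher late in dog CL, at 833 and 3419 CPM in CL caudal and 147 and 691 CPM in CL cranial, and lower in BM, at 283 and 169 CPM. CLU, or clusterin, a chaperone that also binds the attack complex, was lower by much the same amount in each tumor. It stood at 7788, 8253, and 5515 CPM at 1 week and at 847, 997, and 619 CPM late, a fitted difference of -3.13 (SE 0.55, adjusted p = 0.275). In CL cranial at 1 week CLU took the largest share of the counts of any gene, at 1.02%. Before treatment it was at 2798, 2951, and 1784 CPM.

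Inflammasome and lytic death genes had a median of -0.67, with 5 of 15 lower in all 3 tumors (33.3%, beside 24.2% of all genes). NINJ1, which ruptures the membrane of dying cells, differed by -3.15 in both CL tumors and by -0.36 in BM. CASP8, the initiator caspase of death receptors, differed by -1.72, -2.46, and -0.50. Both were lower late in the 3 tumors with the smaller difference in BM.

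T cell genes had a fitted median of -0.14 (-0.89 without CL caudal, 0.37 without CL cranial), with tumor medians of 1.07, -0.96, and -1.07. The tumors thus lay on both sides of 0. IL7R, the interleukin-7 receptor, measured 47.1, 106, and 26.3 CPM at 1 week and 25.5, 14.9, and 13.3 CPM late. CD2, an adhesion receptor of T cells, measured 9.10, 61.0, and 26.4 CPM at 1 week and 3.81, 8.11, and 24.8 CPM late. CD3D, a subunit of the T cell receptor complex, measured 1.03, 14.4, and 8.64 CPM at 1 week and 17.2, 32.6, and 4.61 CPM late. In CL cranial, then, CD2 was lower and CD3D higher in the same late library. CD5, another T cell surface receptor, had a fitted difference of -1.42 (SE 0.74).

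The cytotoxic and NK genes had tumor medians of 1.11, -0.68, and -0.81, the dendritic cell genes of 0.84, -0.99, and -1.29, and the regulatory and checkpoint genes of 0.64, -0.92, and -1.61. In each of the 3 lists the CL caudal median was above 0 and the other two were below it. VSIR, the checkpoint protein VISTA, was lower in all 3, at 91.3, 151, and 286 CPM at 1 week and 14.5, 17.1, and 93.5 CPM late. Its fitted difference was -2.42 (SE 0.44). FOXP3, the factor of regulatory T cells, was at or under 1.68 CPM in the 6 libraries, and PDCD1, which encodes PD-1, at or under 2.13 CPM.

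B cell and plasma cell genes had medians of 1.35 in CL caudal, 0.05 in CL cranial, and -1.74 in BM. JCHAIN, the joining chain of secreted IgA and IgM, measured 67.7 CPM at 1 week and 1137 CPM late in CL caudal, 428 and 1385 CPM in CL cranial, and 768 and 99.4 CPM in BM. TNFRSF17, the plasma cell receptor BCMA, measured 0.300 and 12.6 CPM in CL caudal, 2.51 and 30.2 CPM in CL cranial, and 5.39 and 1.68 CPM in BM. Both markers were therefore higher late in the CL tumors and lower late in BM. In the edgeR fit with terms for BM, its departure from the CL tumors was -5.69 log2 for JCHAIN. BANK1, a scaffold of B cell receptor signaling, was higher in all 3, at 25.2, 29.5, and 44.5 CPM at 1 week and 72.4, 84.3, and 112 CPM late.

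Antigen presentation split by gene. TAP1 and TAP2, the subunits of the peptide transporter, TAPBP, which holds class I molecules at it, and NLRC5, their transcriptional activator, were lower in all 3 tumors, with fitted differences of -1.27 (SE 0.41), -0.95 (SE 0.40), -1.82 (SE 0.49), and -1.61 (SE 0.53). PSMB8 and PSMB9, immunoproteasome subunits, were higher late in dog CL. PSMB9 measured 48.9 and 255 CPM in CL caudal, 131 and 271 CPM in CL cranial, and 179 and 74.5 CPM in BM. PSMB8 differed by 2.52, 1.05, and -1.59. The class I list as a whole had a median of -0.52, with 8 of 17 genes lower in all 3 tumors (47.1%, beside 24.2% of all genes).

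Among class II genes, with tumor medians of 1.5, -0.18, and -1.19, CD74, the invariant chain, measured 792, 3027, and 3530.4 CPM at 1 week and 104, 172, and 1247 CPM late. CIITA, the master activator of the class II genes, measured 13.5, 51.3, and 43.6 CPM at 1 week and 7.26, 13.6, and 7.31 CPM late. DLA-DOA and DLA-DOB, which encode the chains of a modulator of peptide loading, were higher late in dog CL and lower in BM, with differences of 3.56, 0.96, and -1.93 for DLA-DOA and 2.34, 1.34, and -0.91 for DLA-DOB. Counts of class II paralogs are uncertain, since the handling of reads that match several genes is not given in the sources used here.

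Endothelial genes were lower late in each tumor by like amounts, with medians of -1.31, -1.64, and -1.83. Of 25 tested, 16 were lower in all 3 tumors (64%, beside 24.2% of all genes), 10 of them by at least 1 log2 (40%, beside 6.51%). VWF, the von Willebrand factor of endothelium and platelets, measured 26.2, 144, and 689 CPM at 1 week and 6.47, 11.1, and 67.0 CPM late. Before treatment VWF was at 7.43, 23.1, and 42.8 CPM, so the late level was below that level in both CL tumors and above it in BM. MMRN2, an endothelial matrix protein, measured 8.41, 17.5, and 111 CPM at 1 week and 0.144, 1.01, and 11.2 CPM late. SELP, the P-selectin that slows rolling leukocytes, measured 0.644, 6.38, and 8.12 CPM at 1 week and 0.144, 0.184, and 0.443 CPM late. PECAM1 and CDH5, junction proteins that define endothelium, had fitted differences of -2.13 (SE 0.48) and -2.41 (SE 0.75). PLVAP, a protein of capillary pores, measured 21.5 and 34.9 CPM at 1 week in CL caudal and CL cranial and 0 and 0.276 CPM late, whereas in BM it measured 101 and 61.5 CPM. The summed endothelial level was 350 to 3030 CPM at 1 week and 235 to 754 CPM late.

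**Figure D3:**
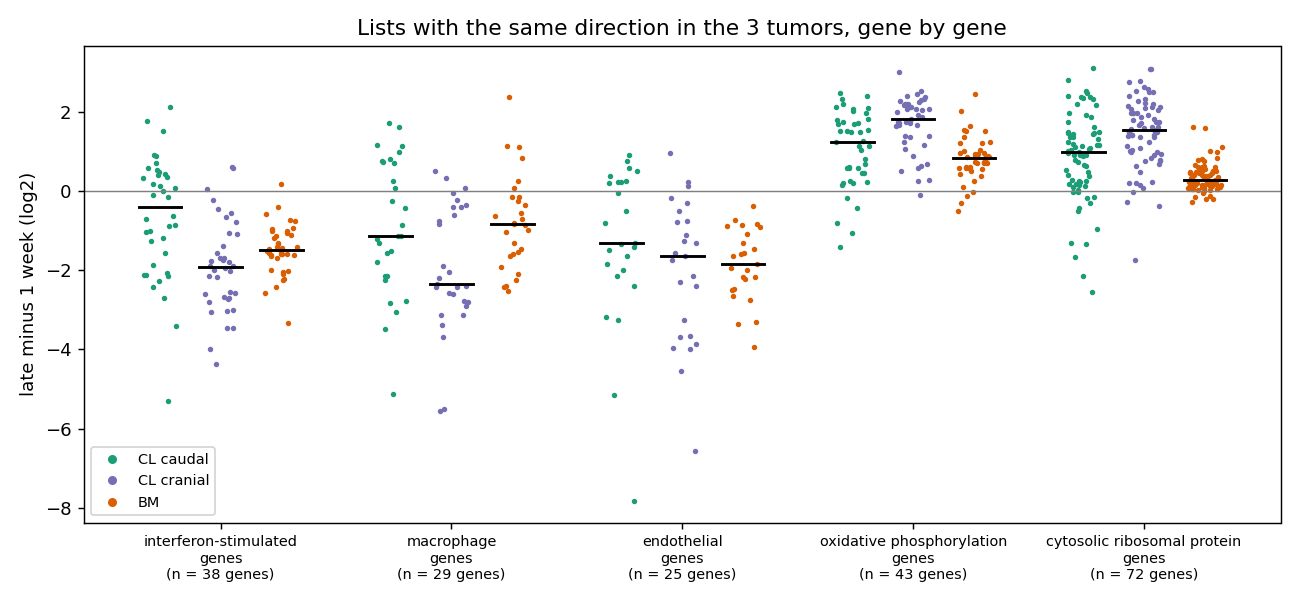
Late minus 1 week difference (log2, y axis) of each tested gene of 5 lists in CL caudal, CL cranial, and BM, with a black line at the median and 1 library per tumor and time point. Interferon-stimulated, macrophage, and endothelial medians are below 0 and oxidative phosphorylation and ribosomal medians above 0 in the 3 tumors, and ribosomal protein genes are spread wider in the CL tumors (SD 1.14 and 0.88) than in BM (SD 0.36).

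The gene with the smallest p-value was TGM2, tissue transglutaminase, which crosslinks matrix proteins. It measured 11.5, 80.0, and 199 CPM at 1 week and 1.44, 2.12, and 22.4 CPM late, beside 1.32, 3.67, and 20.7 CPM before treatment. The fitted difference was -3.79 (SE 0.55, unadjusted p = 7.42e-05, adjusted p = 0.275 in edgeR). KRT80, a keratin of differentiating epithelium, measured 3.86, 31.8, and 38.9 CPM at 1 week and 0.144, 0.553, and 1.11 CPM late. PRG4, or lubricin, a lubricating glycoprotein, measured 29.3, 2.85, and 142 CPM at 1 week and 1.87, 0.276, and 6.20 CPM late. CCDC9B, a coiled-coil protein, measured 28.8, 35.2, and 66.4 CPM at 1 week and 1.22, 1.198, and 9.35 CPM late. With ZBP1, PARP14, OASL, and CLU these are the 8 genes with the smallest p-values among those lower late in all 3 tumors. TGM2, KRT80, PRG4, and ZBP1 were also the 4 genes called by edgeR with all 13 libraries in the fit (adjusted p from 0.0388 to 0.0404). That fit tested 27888 genes, and the spread it added came only from the late pair of sarcoma libraries, sites of the same mass. Passing there is no further support for these genes.

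Matrix genes did not move together. Collagen and matrix genes had medians of -1.17 in CL caudal and -1.63 in CL cranial but 0.90 in BM. COL1A1, the main chain of fibrillar collagen and of bone matrix, measured 88.0 and 222 CPM in CL caudal, 2071 and 2321 CPM in CL cranial, and 7704 and 42333 CPM in BM, where it took 3.19% of all late counts. COL4A2, a basement membrane chain, measured 183, 153, and 475 CPM at 1 week and 69.4, 30.7, and 155 CPM late. COL18A1, the vascular collagen that yields endostatin, measured 54.3, 88.4, and 297 CPM at 1 week and 3.45, 4.24, and 53.9 CPM late. Of the 31 tested collagen and matrix genes, 9 were lower (29%) and 2 higher (6.45%) in all 3 tumors. The shares over all genes were 24.2% and 17.5%, so the share lower was near that of all genes. FBLN2, an elastic fiber protein, had a fitted difference of -2.01 (SE 0.88).

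Matrix protease and plasminogen genes had medians of -1.83, -1.42, and 0.23. TIMP1, an inhibitor of metalloproteinases, measured 113, 155, and 982 CPM at 1 week and 9.27, 18.0, and 565 CPM late. PLAT, the tissue plasminogen activator, measured 22.1, 112, and 182 CPM at 1 week and 6.61, 17.8, and 75.1 CPM late. Both were lower late in each tumor. Fibroblast genes had medians of -0.51, -0.47, and -0.21, and 4 of 20 were lower in all 3 tumors (20%, beside 24.2% of all genes). GSN, the actin-severing gelsolin on that list, had a fitted difference of -2.64 (SE 0.84). It does not stand for the list, since none of the defining fibroblast markers, COL1A1 among them, was lower late in all 3 tumors.

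Bone and cartilage genes had medians of -0.65, -0.70, and 0.89, and in BM 8 of the 22 tested were lower late. Several genes of bone and of osteoclasts were high in the late BM library. MMP9, a gelatinase of osteoclasts and neutrophils, measured 4.15 CPM at 1 week and 1478 CPM late in BM, but 8.07 and 4.02 CPM in CL caudal and 89.0 and 8.20 CPM in CL cranial. ACP5, the acid phosphatase of osteoclasts, measured 22.7 and 820.4 CPM in BM, 6.05 and 6.40 CPM in CL caudal, and 26.9 and 15.6 CPM in CL cranial. CTSK, the bone-resorbing cathepsin K, measured 404 and 2739 CPM in BM, 299 and 321 CPM in CL caudal, and 1097 and 447 CPM in CL cranial. IBSP, a bone sialoprotein, was at 0 CPM in BM at 1 week and at 47.3 CPM late, while in CL caudal it was at 32.6 and 16.7 CPM. The late BM library was the highest of the 6 for each of these 4 genes. BGLAP, or osteocalcin, a defining marker of bone-forming cells, was not among them, at 115, 4.46, and 3.29 CPM at 1 week and 74.3, 6.26, and 2.66 CPM late, the last being the lowest of the 6. In the edgeR fit with terms for BM, its departure from the CL tumors was 10.39 log2 for MMP9, 5.38 for ACP5, and 3.4 for CTSK. It was 15 for IBSP, which stood at 0 CPM in BM at 1 week, and -0.19 for BGLAP. No p-value is given, since BM has 1 library per time point. MATN3, a cartilage matrix protein, was higher late in all 3 tumors, at 1.03, 5.23, and 1.12 CPM at 1 week and 2.80, 17.8, and 23.3 CPM late. COMP, another cartilage matrix protein, was lower, at 4.68, 10.7, and 169 CPM at 1 week and 0.287, 9.95, and 22.1 CPM late.

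Luminal epithelial genes had a median of -3.41 in BM against -0.23 and -0.24 in the CL tumors, and without BM the fitted median of -1.21 was -0.17. In BM their summed level was 4560 CPM before treatment, 3030 CPM at 1 week, and 287 CPM late. KRT8 and KRT18, the paired keratins of luminal cells, had differences of -3.39 and -1.70 in CL caudal, -0.58 and -0.49 in CL cranial, and -3.33 and -3.41 in BM. EPCAM, an epithelial adhesion molecule, measured 13.7 and 67.5 CPM in CL caudal, 179 and 328 CPM in CL cranial, and 129 and 12.1 CPM in BM. CDH1, or E-cadherin, measured 153 and 184 CPM, 624 and 459 CPM, and 335 and 26.8 CPM in the same order. CLDN7, a tight junction claudin, measured 3.39 and 16.3 CPM, 39.1 and 226 CPM, and 25.6 and 4.34 CPM. EPCAM and CLDN7 were thus higher late in dog CL and lower late in BM. In the edgeR fit with terms for BM, its departure from the CL tumors was -4.98 and -4.97 log2.

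The membrane proteases ST14 and PRSS8 were lower in all 3 tumors, and in BM they measured 44.7 and 18.7 CPM at 1 week and 1.86 and 0.797 CPM late. SPINT2, which inhibits such proteases, was at or under 5.99 CPM. TJP3, a tight junction scaffold, had a fitted difference of -2.45 (SE 0.69). In CL caudal the luminal list summed to 507 to 941 CPM over its 3 libraries and KRT18 was at 2.20 to 15.2 CPM, while KRT8 reached 472 CPM at 1 week and CDH1 was at 153 to 185 CPM.

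Smooth muscle and myoepithelial genes had the lowest fitted median of the 38 lists, -1.63. Of 18 tested, 13 were lower in all 3 tumors (72.2%, beside 24.2% of all genes). MYH11, the smooth muscle myosin, measured 511, 232, and 376 CPM at 1 week and 54.0, 44.4, and 13.5 CPM late. OXTR, the oxytocin receptor of myoepithelium, measured 24.8, 8.20, and 34.4 CPM at 1 week and 1.65, 1.198, and 1.99 CPM late. KRT5, a basal keratin, measured 2042, 1057, and 999 CPM at 1 week and 208, 563, and 44.3 CPM late. The late levels of these 3, chosen for a large difference of one sign, lay below those at 1 week (9.64% of all genes did so). CNN1, or calponin, differed by -2.95, -0.17, and -2.68.

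Of the hormone receptors and mammary factors, with medians of 0.94, 0.30, and -1.05, LTF, the milk protein lactoferrin that neutrophils also carry, measured 335, 4659, and 1242 CPM at 1 week and 55.0, 782, and 94.4 CPM late. SOX9, a factor of mammary progenitors and cartilage, measured 7.30, 14.6, and 16.9 CPM at 1 week and 0.144, 1.47, and 5.58 CPM late. WNT4, a progesterone-induced signal, was low, at 0.515, 5.23, and 9.17 CPM at 1 week and 0.287, 1.198, and 0.753 CPM late. LTF had the smallest p of these 3 (fitted difference -2.94, SE 0.59, adjusted p = 0.275 in edgeR).

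Cell division genes were higher late in BM and not in dog CL. The medians were -0.97 in CL caudal, -0.54 in CL cranial, and 1.89 in BM over 55 genes, and 0 genes were lower and 8 higher in all 3 tumors (14.5%, beside 17.5% of all genes). CDK1, the kinase that drives mitosis, measured 33.5, 12.2, and 17.8 CPM at 1 week and 73.7, 37.0, and 139.8 CPM late. MAD2L1, a spindle checkpoint protein that was not on the list, measured 14.2, 8.71, and 11.9 CPM at 1 week and 52.96, 30.03, and 84.9 CPM late. CENPK, CENPE, and BUB3, of the kinetochore and its checkpoint, had fitted differences of 1.11 (SE 0.49), 0.94 (SE 0.48), and 0.90 (SE 0.41). CDK1, CENPK, CENPE, and BUB3 were higher late in all 3 tumors although the list medians of the CL tumors were below 0. The summed level in BM was 2910 CPM before treatment, 1260 CPM at 1 week, and 4160 CPM late.

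**Figure D4:**
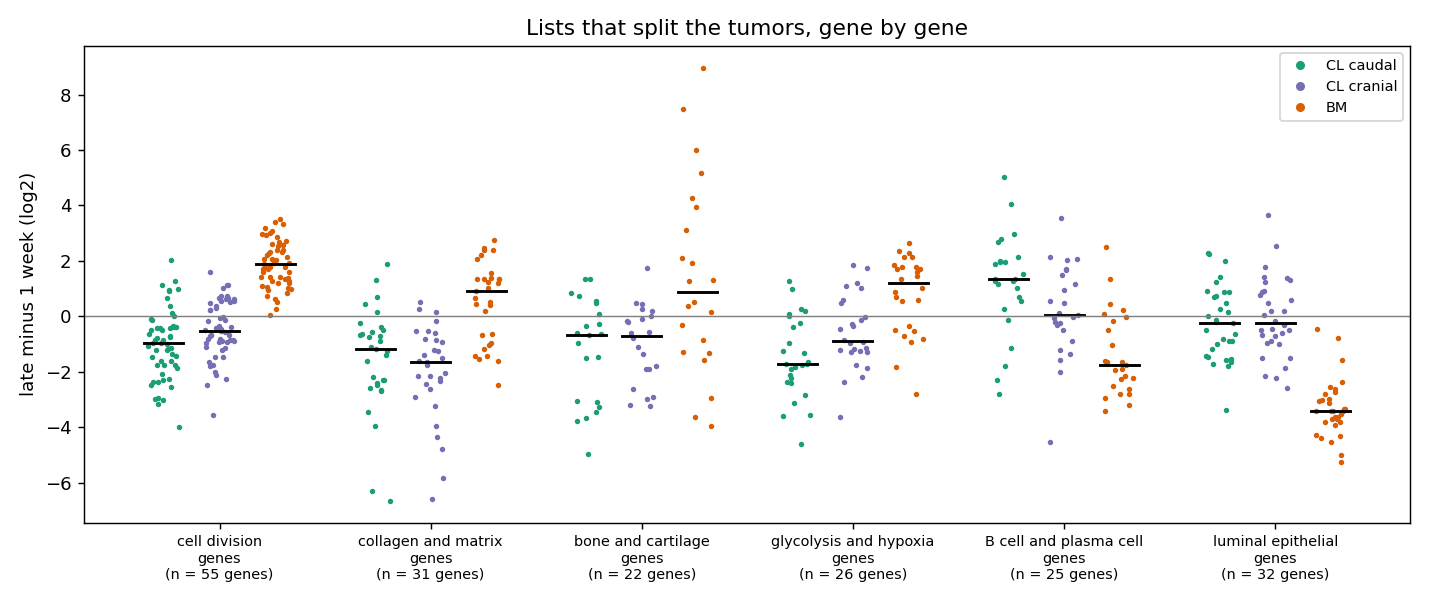
Late minus 1 week difference (log2, y axis) of each tested gene of 6 lists in CL caudal, CL cranial, and BM, with a black line at the median and 1 library per tumor and time point. In BM the cell division, collagen, bone, and glycolysis medians lie above 0 (1.89, 0.90, 0.89, and 1.19) and the luminal and B cell medians below 0 (-3.41 and -1.74), and the CL medians lie on the other side of 0 except for luminal genes.

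Glycolysis and hypoxia genes had medians of -1.70, -0.88, and 1.19. LDHA, lactate dehydrogenase, was higher late in all 3 tumors, at 859, 355, and 433 CPM at 1 week and 2057, 1187, and 1196 CPM late. VEGFA, the vascular growth factor, measured 149, 59.4, and 40.0 CPM at 1 week and 12.5, 11.5, and 31.6 CPM late. In BM it had been at 913 CPM before treatment.

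Oxidative phosphorylation genes had the highest fitted median of the 38 lists, 1.27, with tumor medians of 1.25, 1.83, and 0.84. Before treatment, at 1 week, and late they summed to 10500, 4800, and 10700 CPM in CL caudal. The sums were 4990, 3540, and 11400 CPM in CL cranial, and 3670, 5050, and 9700 CPM in BM. In BM the sum was thus higher at 1 week than before treatment. Of 43 tested, 34 were higher in all 3 tumors (79.1%, beside 17.5% of all genes), 0 were lower in all 3, and 26 had an unadjusted p under 0.05. NDUFB5, a subunit of complex I, measured 45.3, 33.6, and 41.9 CPM at 1 week and 255, 187, and 121 CPM late. CYC1, cytochrome c1 of complex III, measured 68.7, 41.3, and 65.5 CPM at 1 week and 121, 191, and 357 CPM late. ATP5MC1, which encodes the ATP synthase ring, measured 80.0, 51.5, and 111 CPM at 1 week and 278, 420, and 351 CPM late. The 3 late values lay above the 3 at 1 week for these genes, chosen for a large difference of one sign (8.89% of all genes did so). The fitted differences were 2.13 (SE 0.52), 1.86 (SE 0.45), and 2.19 (SE 0.55). SDHD, a membrane anchor of complex II, had a fitted difference of 1.75 (SE 0.58).

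Mitochondrial proteins were also among the 8 genes with the smallest p-values of those higher late in all 3 tumors. HIGD1A, which attends the respiratory chain in low oxygen, measured 32.6, 36.9, and 40.97 CPM at 1 week and 180.2, 173, and 155 CPM late. SLC25A4, the ADP and ATP carrier, measured 98.4, 54.7, and 60.8 CPM at 1 week and 389.6, 276, and 201 CPM late. MRPL13, of the mitochondrial ribosome, measured 22.9, 20.1, and 26.2 CPM at 1 week and 90.4, 79.5, and 104 CPM late. MRPL13 had differences of 1.98, 1.98, and 1.99. The others were MAD2L1, the nuclear pore protein NUP43, the methyltransferase VCPKMT, the secreted protein PRADC1, and the zinc finger protein ZNF250, with fitted differences from 1.79 to 2.22 and an adjusted p of 0.275.

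Cytosolic ribosomal protein genes were higher late, with medians of 0.99, 1.56, and 0.30. Of 72 tested, 54 were higher in all 3 tumors (75%, beside 17.5% of all genes). The fitted median of 0.93 was 0.58 without CL cranial and 1.4 without BM. They took 7.12% of counts at 1 week and 12.2% late in CL caudal, 4.98% and 12.3% in CL cranial, and 7.44% and 7.77% in BM. Ribosomal proteins are made in equal number, and their transcripts usually move together. In BM the 72 differences ran from -0.28 to 1.63 (SD 0.36), but in CL caudal from -2.55 to 3.13 (SD 1.14) and in CL cranial from -1.73 to 3.09 (SD 0.88). RPS20 measured 775 and 6771 CPM in CL caudal, 678 and 5779.6 CPM in CL cranial, and 1603 and 2042 CPM in BM. RPL4 measured 1266 and 216 CPM, 703 and 211 CPM, and 1263 and 1362 CPM in the same order. Genes of one particle thus lay on opposite sides of 0 in the CL tumors. RPS10 and RPS2 had fitted differences of 1.84 (SE 0.72) and 1.77 (SE 0.65).

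In dog CL the late libraries therefore differed from those at 1 week in the balance of ribosomal transcripts, and the library that stood apart was not the same in both tumors. In CL caudal the late library was near the one before treatment (SD of the 72 differences 0.37) and far from the one at 1 week, and in CL cranial the libraries before treatment and at 1 week were near each other (SD 0.20) while the late one was far from the library before treatment (SD 0.92). The difference also went with gene density, in opposite directions in the 2 dogs. The Spearman rank correlation was -0.289 in CL caudal, -0.109 in CL cranial, and 0.102 in BM. Among 4 equal groups of genes by the number of neighbors within 500 kb, the densest had a median of -0.96 in CL caudal, -0.60 in CL cranial, and 0.02 in BM, and the sparsest one of 0.31, -0.07, and -0.39. Density and gene length together accounted for 11.9%, 6.4%, and 1.82% of the variance of the differences. The same direction in CL caudal and CL cranial, including the opposed pairs NFKBIA and NFKB2, CD3D and CD2, or PSMB9 and TAP1, was measured in these libraries, and the part of library quality in it was not tested. The interferon, macrophage, and endothelial medians were below 0 in BM as well, which is another dog with 1 library per time point. Oxidative phosphorylation genes were also spread wider in dog CL, with an SD of 0.96 in CL caudal, 0.71 in CL cranial, and 0.57 in BM. Late against before treatment their SD was 0.24 in CL caudal and 0.72 in CL cranial. At 1 week against before treatment it was 1 in CL caudal and 0.23 in CL cranial. The part of library quality in the medians of all these lists was not tested either.

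**Figure D5:**
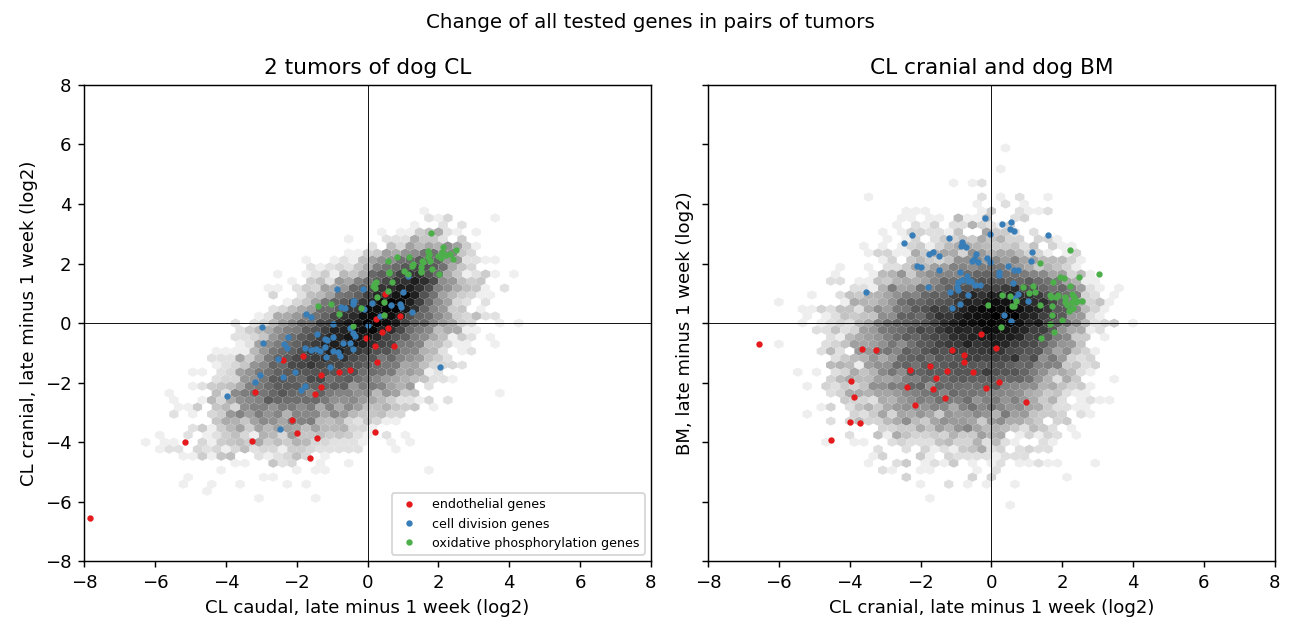
Late minus 1 week difference (log2) of 19975 genes in CL caudal against CL cranial (left) and in CL cranial against BM (right), gray shade for the number of genes on a log scale, and colored points for 3 gene lists. The left cloud runs along the diagonal (Pearson r = 0.67 across genes) and the right one does not (r = 0.16), with most endothelial genes below 0 and most oxidative phosphorylation genes above 0 on both axes of both panels.

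The 2 tumors of dog CL resembled each other and not BM. Across the 19975 genes the differences of CL caudal and CL cranial had a Pearson r of 0.67, and 76.6% had the same sign. The r was 0.000103 between CL caudal and BM, with 50.3% of the same sign, and 0.159 between CL cranial and BM, with 56.3%. Genes that differed by at least 1 log2 in opposite directions numbered 345 between the CL tumors, 1987 between CL caudal and BM, and 1449 between CL cranial and BM. Genes are not independent replicates, and the CL tumors share a host and a prefix of the library name that BM does not, so dog, tumor type, interval, and library set cannot be told apart. An edgeR fit with terms of its own for BM matches the BM libraries exactly. Its 2 residual degrees of freedom come only from the 2 CL tumors, which share a host. It cannot measure the spread between dogs, so only the size of the departure of BM is given for single genes.

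Adipocyte genes had medians of -1.46, -1.15, and -0.95. PNPLA2, the first lipase of stored fat, measured 13.2, 25.3, and 48.3 CPM at 1 week and 1.01, 4.42, and 22.3 CPM late. PLIN4, a lipid droplet protein, had a fitted difference of -2.39 (SE 0.78). The summed adipocyte level did not fall in each tumor, at 857, 413, and 594 CPM at 1 week and 1030, 239, and 1110 CPM late. The defining adipocyte marker that was tested differed by -2.06, 2.49, and -1.73. Epidermis genes had medians of -1.11, -1.43, and 0, and DSG3, a desmoglein of squamous epithelium, measured 92.2, 103, and 61.4 CPM at 1 week and 13.9, 11.98, and 1.06 CPM late. Skeletal muscle genes had medians of -1.25, -1.01, and 0.03, and erythroid genes of 0.35, -1.25, and -0.89 over 7 tested genes. The skeletal muscle list summed to no more than 240 CPM and the erythroid list to no more than 84.1 CPM.

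Mesenchymal switch genes had medians of -0.78, -0.80, and 0.76, and p53 target and cell stress genes of -0.61, -0.03, and 0.01. SESN2, a sestrin induced by stress, measured 13.8, 23.0, and 12.5 CPM at 1 week and 2.2995, 5.80, and 5.71 CPM late, and CDKN1A, the p21 inhibitor of the cell cycle, measured 116, 151, and 109.7 CPM at 1 week and 41.6, 76.9, and 50.8 CPM late. Cholesterol synthesis genes had medians of -0.15, 0.15, and 0.79, with EBP, a sterol isomerase, and INSIG1, which restrains the pathway, higher in all 3 tumors (fitted differences 1.22, SE 0.40, and 1.53, SE 0.56). Motile cilium genes had medians of -0.32, -0.10, and -0.03, and circadian clock genes of -0.19, -0.08, and -0.03. The clock genes NR1D1, at -1.68 (SE 0.69), and CLOCK, at 1.24 (SE 0.46), lay on opposite sides of 0, and NR1D2 was at 0.94 (SE 0.36).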

How the data were processed

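Strand-specific RNA-seq reads were aligned by the authors to CanFam4.0 with Strand NGS, and raw counts for 43427 gene symbols were deposited. The counting rule is not given in the sources used here. Positions and lengths came from RefSeq for UU_Cfam_GSD_1.0 (98% of symbols matched). The 9 mammary libraries were filtered with filterByExpr (minimum count 10), scaled by TMM, and fitted with tumor and time in edgeR 4.0.16 (R 4.3.3), with 4 residual degrees of freedom. Late minus 1 week was tested by the robust quasi-likelihood test with Benjamini-Hochberg adjustment at 0.05. DESeq2 1.42.0 was an alternative. Differences per tumor are of log2 CPM with a prior count of 2, and differences under 1e-06 were taken as 0. Figures used matplotlib 3.10.9. A count of 3 was the floor of detection. Late values at or under 0.144 CPM in CL caudal, 0.184 CPM in CL cranial, and 0.0443 CPM in BM were under it. Examples are MARCO, MMRN2, SELP, KRT80, SOX9, and PADI4 in CL caudal, SELP in CL cranial, and CCL7 in BM. The size of a difference that reaches such a value is uncertain. Depth intervals are not given, since the spread between tumors was the error used.

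The pairing is by tumor, and libraries of the same tumor deviated together at 1 week and late (r = 0.488, 0.495, and 0.435, against -0.478 to -0.0519 for different tumors). Each pair of libraries differed by more than sampling noise (the lowest chi-square over its degrees of freedom was 31.3).

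The comparison and the 38 lists were chosen with earlier results of these data known. Genes were named by a rule: in each direction the 8 with the smallest p and the same sign in all 3 tumors, per list up to 4 members with the largest change of the same sign in all 3 tumors, up to 2 members against the list median, and defining markers. The 135 genes in the text are a subset of those, chosen after their values were seen. In simulated data at the deposited spread, edgeR recovered 102 of 200 genes changed by 3 log2, with 4 false calls, for this comparison over 19515 genes. Alternatives were other scaling, no filter, no block or the dog as block, other sets of libraries, each tumor left out, CL tumors summed, DESeq2, other thresholds and prior counts, thinned counts, and offsets for gene density and length. A fit with terms of its own for BM and a second form of the offsets were added after seeing the data. Some single genes of the lists are not reported here.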

Additional observations from a re-analysis of the deposited data

Results flagged for a closer look

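In 10 gene lists both tumors of dog CL had a median difference on one side of 0 and BM on the other, and for the lists as such this was not tested. The medians for CL caudal, CL cranial, and BM were 1.35, 0.05, and -1.74 for B cell and plasma cell genes, -1.17, -1.63, and 0.90 for collagen and matrix genes, and -1.83, -1.42, and 0.23 for matrix protease and plasminogen genes. They were 0.94, 0.30, and -1.05 for hormone receptors and mammary factors, -0.78, -0.80, and 0.76 for mesenchymal switch genes, and -1.25, -1.01, and 0.0277 for skeletal muscle genes. They were -0.65, -0.70, and 0.89 for bone and cartilage genes, -0.97, -0.54, and 1.89 for cell division genes, -1.70, -0.88, and 1.19 for glycolysis and hypoxia genes, and -0.61, -0.03, and 0.0134 for p53 target and cell stress genes. The skeletal muscle value of BM and the p53 values of CL cranial and BM lie within 0.05 of 0. The late BM specimen, read as carcinosarcoma, had 42333 CPM of COL1A1 and a summed luminal level of 287 CPM.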

How the results depend on the processing

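The count of genes called is the result that depends most on the processing. It was 0 lower and 0 higher in edgeR with DESeq2's size factors, at a threshold of 0.1, with the 6 libraries alone, with the CL tumors summed, and without each tumor in turn, where the smallest adjusted p was 0.0713 without BM. It was 744 and 208 with DESeq2's Wald test, 105 and 5 with no filter on low counts, and 4 and 0 with all 13 libraries. The fit with 13 libraries kept more genes and drew its added spread only from the sarcoma. A fit with no replicate block called 0, with 947 lower and 804 higher at an unadjusted p under 0.05, and the dog as block gave 0, with 1336 and 754. Without the block the medians were -0.30 for cGAS-STING and -0.58 for NFkB genes, and CD68 (0.46) and S100A8 (2.01) turned above 0.

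Offsets for gene density and length changed the split of directions, depending on whether each library's mean was kept. The form first run removed it and gave 1356 genes lower and 2214 higher at an unadjusted p under 0.05, against 2026 and 1049 without offsets, and an all-gene median of 0.13. The form that keeps the mean replaced it after that result was seen and gave 2126 and 1148. With the mean removed, genes lower or higher by 1 log2 in all 3 tumors numbered 795 and 692, and medians were 0.04 for cGAS-STING, 0.07 for fibroblast, 0.34 for motile cilium, 0.24 for circadian clock, -0.16 for NFkB, -1.26 for endothelial, -0.44 for adipocyte, and 0.35 for p53 genes. With the mean kept they were -0.28 for cGAS-STING, -0.49 for NFkB, and 0.00 for motile cilium genes. A direction of the modest lists, and the excess of lower over higher genes, is thus a statement relative to TMM scaling.

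At 0.5 log2 in place of 1 the counts were 2580 lower and 1333 higher. Over the fits that leave out 1 tumor, genes lower by 1 log2 in the remaining tumors numbered 1706 to 3705 and higher 502 to 2226 (2843 and 642 without CL caudal), fewer tumors having to pass. The medians ranged from -0.37 to -0.16 for cGAS-STING (-0.17 without BM), -0.97 to -0.42 for interferon receptor, IRF and STAT, -0.65 to -0.52 for NFkB, -1.55 to -0.84 for neutrophil, -0.42 to 0.07 for fibroblast, -0.57 to 0.02 for motile cilium, and -0.25 to -0.10 for circadian clock genes (-0.17 without BM). In all, leaving out 1 tumor turned the sign of the median of 14 of the 38 lists, and turned or moved by over 1.5 times that of 29. Among these the ranges were -0.89 (without CL caudal) to 0.37 (without CL cranial) for T cell, -0.81 (CL caudal) to 0.76 (BM) for B cell and plasma cell, -0.30 (CL caudal) to 0.77 (BM) for MHC class II, -0.97 to 0.10 for dendritic cell, -0.74 to 0.28 for cytotoxic and NK, -0.83 (BM) to 0.92 (CL caudal) for cell division, -1.06 (BM) to 0.31 (CL caudal) for glycolysis and hypoxia, -0.51 (CL cranial) to 0.38 (CL caudal) for bone and cartilage, -0.18 to 1.07 for hormone receptor and mammary factor, -0.64 to 0.15 for mesenchymal switch, -0.23 to 0.08 for p53, -0.07 to 0.52 for cholesterol synthesis, -1.7 to -0.17 for luminal (-0.17 without BM), -1.27 to -0.34 for collagen, -1.56 to -0.54 for macrophage, -1.24 to -0.78 for chemokine, and 0.58 to 1.4 for ribosomal genes. The 9 that did neither were interferon-stimulated (-1.67 to -0.96), NFkB, complement (-1.98 to -1.1), inflammasome, endothelial (-1.78 to -1.5), smooth muscle (-1.85 to -1.46), epidermis, adipocyte, and oxidative phosphorylation genes (1.03 to 1.72). Single genes turned in some of these fits, with ranges from -2.93 to 0.63 for CD68, -1.84 to 6.40 for MMP9, -1.97 to 7 for IBSP, -0.48 to 0.09 for BGLAP, -0.14 to 4.18 for ACP5, -0.56 to 1.89 for CTSK, -0.49 to 1.65 for EPCAM, -1.71 to 0.02 for CDH1, -0.02 to 2.49 for CLDN7, -0.86 to 2.82 for JCHAIN (-0.32 without CL cranial), -0.27 to 2.12 for DLA-DOA, -0.05 to 1.70 for PSMB8, and -0.56 to 0.95 for S100A8 (0.17 without CL cranial). The cGAS-STING median was -0.33 with DESeq2's size factors, -0.59 with the dog as block, -0.47 with 6 libraries, and -0.52 with the CL tumors summed, which gave -0.52 for NFkB and 0.19 for motile cilium genes, -0.44 for EPCAM, 0.57 for CD68, and -0.67 for JCHAIN. S100A8 was at 0.04 with DESeq2's size factors, 0.66 with the dog as block, 0.38 with 6 libraries, 0.01 with 13, and 0.03 in DESeq2, and MMP9 at -0.36 with 6 libraries. The cause was not tested. DESeq2 called 61 of the 135 named genes, beside 952 of all 19975 genes tested. The named genes were mostly chosen by p-value, size, or shared sign in these same data, so that count is not support for them.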
